A study of Rattus norvegicus with 16 samples.

Results

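Tcf7, Lef1, Satb1, Bach2, Foxo1, Klf2, Il7r, Cd28, Ccr7 and S1pr1 are 10 genes that resting T cells use to stay quiescent, survive and travel between blood and lymph nodes. They were picked by symbol from the count files, and all 10 were listed in every file, among 18031 genes common to the files and 26405 genes listed in at least 1 file. Each symbol had 1 entry. The data were whole blood RNA-seq libraries of 16 adult male Sprague-Dawley rats from Charles River, 85 to 90 days old, all in 1 group of saline controls numbered 1 to 16. Each animal had been given 4 saline injections of 1 ml/kg, spaced 2 h apart, and its blood was drawn by cardiac puncture 3 h after the last injection. Alpha and beta globin mRNA was depleted before sequencing. The study ran its experiment several times over a span of years, and the labels used here do not say which animal belonged to which run of it, so no term for the experiment was fitted. No uninjected animals, females or sorted cells were analysed here, so levels refer to the mixed cells of injected males. In whole blood, fewer T cells and less RNA per T cell cannot be told apart.

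A naive T cell is one that has left the thymus and has not yet met its antigen. It is kept alive by IL-7 and by weak signals through its antigen receptor, and it moves in a circuit: CCR7 draws it into lymph nodes, and the sphingosine-1-phosphate receptor S1PR1 lets it leave again for the blood. The transcription factors TCF-1 (Tcf7), LEF-1, SATB1, BACH2, FOXO1 and KLF2 keep this programme active, and FOXO1 is known to raise Il7r, Ccr7 and Klf2 in mouse T cells, with KLF2 in turn raising S1pr1. Several of the genes are not confined to T cells. B cells also use Bach2, Foxo1, Ccr7 and S1pr1, and Klf2 is active in endothelium and myeloid cells as well.

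The libraries held 21466776 to 31189549 estimated counts. The T-cell, B-cell, myeloid, cytotoxic, platelet and reticulocyte marker lists used to check the tissue had no gene at 0 in any library. A few libraries stood apart in markers of other tissues. In control 12 the summed normalized count of 6 early thymocyte genes was 6682, against at most 543 elsewhere, and that of 6 adipocyte genes was 3993, against at most 540. In control 2 the 6 liver genes summed to 447350, and control 8 was next with 19690. In control 10 the 6 cardiac muscle genes summed to 464, against at most 85 elsewhere. The part of these transcripts in the results was not tested, and results are given without the libraries concerned where that changed a call.

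RefSeq promoter windows of the rat build GRCr8, from 250 bases before to 50 bases after the start of transcription, were found for 8 of the 10 genes. Klf2 and Ccr7 had no entry. The 5 windows printed here belong to the genes of the pairs that varied most closely together in blood, namely Tcf7, Lef1 and Satb1 in one set and Bach2 and Foxo1 in the other. They lie at chr10:36954230-36954529 (Tcf7, minus strand), chr2:222340463-222340762 (Lef1, plus strand), chr9:4989876-4990175 (Satb1, minus strand), chr5:51513155-51513454 (Bach2, plus strand) and chr2:138462724-138463023 (Foxo1, plus strand). Capitals mark matches to the letters CTTTG, the core of TCF/LEF sites, which read CAAAG on the opposite strand, and to CACCC, the core of KLF sites, which read GGGTG there. Both strands were searched. In Lef1 a match of one kind overlaps a match of the other by 1 base.
Tcf7: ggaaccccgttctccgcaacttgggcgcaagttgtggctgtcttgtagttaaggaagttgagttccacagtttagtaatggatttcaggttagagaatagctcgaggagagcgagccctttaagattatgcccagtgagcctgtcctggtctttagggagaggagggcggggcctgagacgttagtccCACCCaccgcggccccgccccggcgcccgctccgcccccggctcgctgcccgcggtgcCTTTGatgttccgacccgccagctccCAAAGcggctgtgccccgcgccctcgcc
Lef1: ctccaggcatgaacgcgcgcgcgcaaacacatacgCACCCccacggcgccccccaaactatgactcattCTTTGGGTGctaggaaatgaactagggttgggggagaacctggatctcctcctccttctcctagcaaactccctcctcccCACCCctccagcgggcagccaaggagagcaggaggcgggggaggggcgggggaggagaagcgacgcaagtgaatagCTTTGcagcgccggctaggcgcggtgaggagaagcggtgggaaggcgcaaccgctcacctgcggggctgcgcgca
Satb1: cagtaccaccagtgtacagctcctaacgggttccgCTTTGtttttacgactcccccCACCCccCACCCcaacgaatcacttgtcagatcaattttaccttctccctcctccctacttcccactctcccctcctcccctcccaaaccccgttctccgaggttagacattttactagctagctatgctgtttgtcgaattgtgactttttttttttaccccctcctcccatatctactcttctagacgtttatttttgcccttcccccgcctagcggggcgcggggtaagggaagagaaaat
Bach2: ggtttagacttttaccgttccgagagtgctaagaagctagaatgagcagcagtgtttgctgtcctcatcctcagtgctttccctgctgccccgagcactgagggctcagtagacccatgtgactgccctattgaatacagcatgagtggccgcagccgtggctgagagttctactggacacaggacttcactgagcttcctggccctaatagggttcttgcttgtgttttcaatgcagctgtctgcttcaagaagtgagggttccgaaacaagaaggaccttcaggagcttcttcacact
Foxo1: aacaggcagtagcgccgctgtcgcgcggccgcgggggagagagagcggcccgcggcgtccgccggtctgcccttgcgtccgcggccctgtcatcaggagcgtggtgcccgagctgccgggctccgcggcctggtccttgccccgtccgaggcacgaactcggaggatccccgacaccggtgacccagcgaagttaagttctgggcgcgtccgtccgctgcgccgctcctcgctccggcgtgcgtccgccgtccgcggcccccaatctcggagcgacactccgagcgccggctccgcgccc

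The Tcf7 and Lef1 windows held 2 matches each to the TCF/LEF letters and Satb1 held 1, whereas Bach2 and Foxo1 held 0. Over the 8 windows, 5 had such a match, beside 53.5% of 27457 rat promoters of the same length. The KLF letters occurred 1 time in Tcf7, 3 times in Lef1, 2 times in Satb1 and in 5 of the 8 windows, beside 55.1% of all promoters. The longer FOXO letters GTAAACA, present on either strand in 3.76% of all promoters, and the ETS letters CCGGAA, present in 15.8%, occurred in 0 of the 8. A share near that of all promoters is no feature of these genes, and a match is a string of letters, not a binding site. The windows differed in base composition. Foxo1 had 75.0% G and C with 49 CpG dinucleotides, Lef1 64.7% with 23, Tcf7 62.7% with 24, Bach2 51.3% with 6 and Il7r 46.0% with 1, where the median of all promoters was 52.3% and 7.

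The levels are normalized counts, that is, estimated counts divided by DESeq2 size factors. They were not divided by gene length and are compared between animals only, not between genes. Among the transcription factors, Tcf7 (ENSRNOG00000005872), which encodes TCF-1, the founding factor of the T lineage, averaged 4345 ± 1329 (SD, n = 16). It ranged from 2308 in control 8 through a median of 4586 to 7377 in control 4. Lef1 (ENSRNOG00000010121), its close relative with the same DNA-binding domain, averaged 534 ± 174 (SD, n = 16). Its lowest value was 228 in control 8, its median 552 and its highest 994 in control 4. Satb1 (ENSRNOG00000012942), an organizer of chromatin loops in thymocytes and T cells, averaged 2726 ± 755 (SD, n = 16), with 1455 in control 8, a median of 2693 and 4835 in control 4. The same 2 animals therefore formed both ends of the range in these 3 genes, and control 7 was second lowest in each of them.

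Bach2 and Foxo1 shared their lowest animal with those 3 genes but not their highest. Bach2 (ENSRNOG00000006170), a repressor that restrains effector differentiation in T cells and plasma cell differentiation in B cells, averaged 363 ± 159 (SD, n = 16). It was lowest in control 8 with 152, had a median of 332 and was highest in control 6 with 851, where the next library, control 4, had 493. Foxo1 (ENSRNOG00000013397), the factor that links growth factor signalling to quiescence, averaged 420 ± 145 (SD, n = 16), with 194 in control 8, a median of 404 and 740 in control 6. Control 6 also had the highest B-cell reference level of the 16 libraries, 11.14 on the log2 scale, and its Tcf7 count of 4532 lay near the median.

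Klf2 (ENSRNOG00000014205), which sustains quiescence and the transcription of trafficking receptors, averaged 1075 ± 313 (SD, n = 16). It ranged from 564 in control 12 through a median of 986 to 1644 in control 1. Control 8, the lowest library in 6 of the 10 genes, was the second highest in Klf2 with 1448. Control 4, the highest library in 5 genes, had 864, below the median.

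Of the surface receptors, Il7r (ENSRNOG00000017413), the alpha chain of the IL-7 receptor, averaged 2655 ± 861 (SD, n = 16). Its lowest value was 1662 in control 9, its median 2438 and its highest 4896 in control 4, with control 7 next at 3564. Cd28 (ENSRNOG00000010283), the main costimulatory receptor of T cells, averaged 289.5 ± 99.5 (SD, n = 16). It ranged from 168 in control 15 through a median of 264 to 504 in control 10. Control 10 was also the library with the cardiac muscle transcripts. Controls 3 and 4 followed with 446.5 and 445.5, and the next was control 12 with 341.3, so 3 animals lay apart at the top.

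Of the trafficking receptors, Ccr7 (ENSRNOG00000010665) averaged 2053 ± 363 (SD, n = 16), with 1396 in control 8, a median of 2056 and 2927 in control 4. S1pr1 (ENSRNOG00000013683) averaged 2908 ± 395 (SD, n = 16) and had the narrowest range of the 10 genes, from 2385 in control 12 through a median of 2964 to 3583 in control 14. Its highest value was 1.50-fold its lowest. The corresponding ratio was 2.10 for Ccr7, between 2.91 and 4.36 for 7 of the others and 5.61 for Bach2.

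**Figure D1:**
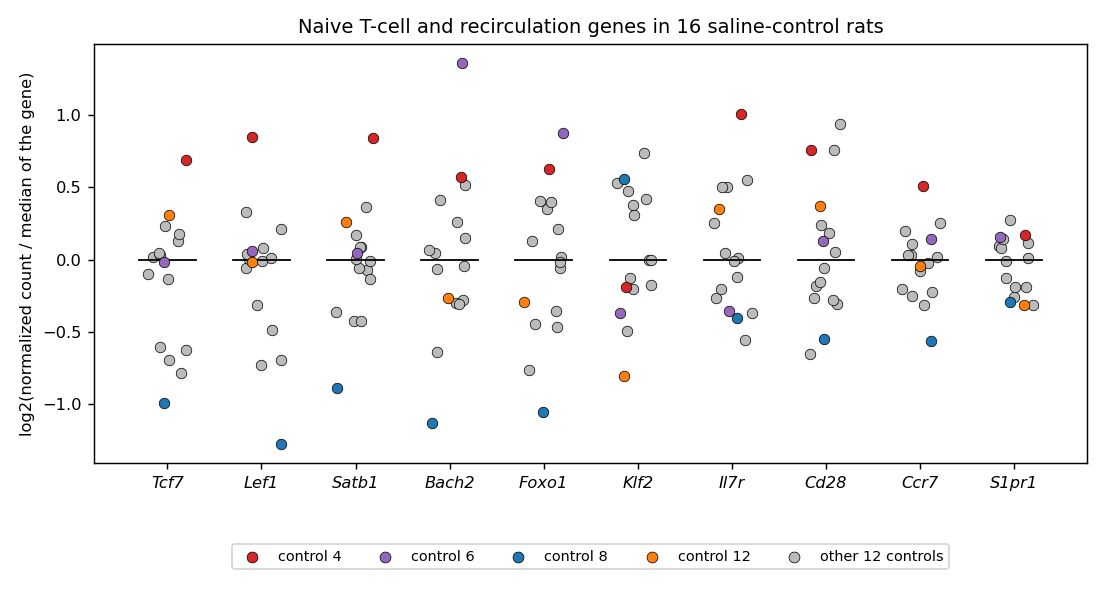
Level of each gene in the 16 libraries as log2 of the normalized count over the median of that gene, with 1 point per animal, a line at the median and 4 animals coloured. Control 4 (red) is highest in Tcf7, Lef1, Satb1, Il7r and Ccr7, control 8 (blue) is lowest in 6 genes but second highest in Klf2, and control 6 (purple) is highest in Bach2 and Foxo1.

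The coefficient of variation over the animals was lowest for S1pr1 (13.6%) and Ccr7 (17.7%) and highest for Bach2 (43.9%). The other 7 genes lay between 27.7% (Satb1) and 34.6% (Foxo1). The median of the 10 genes was 31.5%, beside 24.9% for the 5830 genes whose mean was at least that of Cd28, and 8 of the 10 genes were above the latter. Without controls 4 and 8, left out because they lay at the ends of many of the 10 genes, the 2 medians were 24.2% and 22.95%. The lowest count of any of these genes in any library was 117, for Bach2 in control 8, so counting error was small beside the spread among animals.

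Correlations of log2 levels over the 16 libraries are given as a description, since all points share library and scaling. Over the 45 pairs the median Pearson r was 0.51, beside -0.008 over all pairs of the 5830 genes. In 4 pairs r was at least 0.9, where 0.501% of the pairs of the 5830 genes reached that value. Tcf7 and Lef1 had r = 0.95 (rho = 0.85), and 0.93 without controls 7 and 8, the animals farthest from the median of Tcf7. Lef1 and Satb1 had r = 0.95 (rho = 0.69), and 0.86 without controls 4 and 8. Tcf7 and Satb1 had r = 0.91 (rho = 0.85), and 0.87 without controls 7 and 8. Bach2 and Foxo1 formed the fourth pair with r = 0.94 (rho = 0.92), and 0.91 without controls 6 and 8. Within run codes, that is, after centring on the mean of libraries with the same code in the file name, these 4 values were 0.96, 0.95, 0.95 and 0.94, and the median over the 45 pairs was 0.68. Controls 15 and 16 were each alone in their code, so centring left no spread in them. Controls 6 and 9 made up another code, so their centred values mirror each other. Centred values thus describe fewer animals than the 16.

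Between the 2 sets the values over all 16 libraries were lower. Bach2 had r = 0.56 with Tcf7 (rho = 0.41), 0.64 with Lef1 (rho = 0.63) and 0.50 with Satb1 (rho = 0.29), and these were 0.26, 0.38 and 0.11 without the 2 animals farthest from the median of the gene named with it (controls 7 and 8 for Tcf7, 4 and 8 for the others). Centred within run codes they were 0.79, 0.86 and 0.72. Foxo1 had r = 0.68 with Tcf7 (rho = 0.47), 0.74 with Lef1 (rho = 0.73) and 0.60 with Satb1 (rho = 0.41), which were 0.43, 0.55 and 0.25 without the same animals and 0.85, 0.90 and 0.75 centred within run codes. How far the sets lay apart thus changed with the animals and the centring. Il7r had r = 0.60 with Satb1 (rho = 0.46) and with Ccr7 (rho = 0.49), but -0.04 with Bach2 (rho = -0.09) and -0.01 with Foxo1 (rho = -0.07). The first pair was 0.26 and 0.31 without the animals farthest from the median of Satb1 (controls 4 and 8) and Il7r (controls 4 and 9). Centred within run codes it was 0.75 and 0.63. The second pair was 0.42 and 0.36 centred within run codes. Without the animals farthest from the median of Bach2 (controls 6 and 8) and Il7r it was -0.05 and -0.30. S1pr1, although it varied little, had r = 0.71 with Lef1 (rho = 0.84) and 0.68 without controls 4 and 8. Klf2 gave 8 of the 10 negative values, from -0.01 with Tcf7 to -0.47 with Cd28 (rho = -0.42), and was positive with S1pr1 alone (r = 0.27, rho = 0.16). The value with S1pr1 was -0.0002 without controls 7 and 12, the animals farthest from the median of S1pr1. It was 0.09 without control 12 alone, 0.23 centred within run codes and 0.47 without controls 4 and 8. The 8 negative values depended on the scaling. With counts divided by the library total, r was positive for Klf2 with each of the other 9 genes, 0.06 with Cd28 among them. They depended on the animals too. Without controls 4 and 8, 6 of the 8 were positive, 0.38 with Lef1 the highest. Centred within run codes, 7 of the 8 stayed negative, -0.58 with Il7r the lowest. The median over the 45 pairs was 0.275 without controls 4 and 8 and 0.775 with total count scaling.

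**Figure D2:**
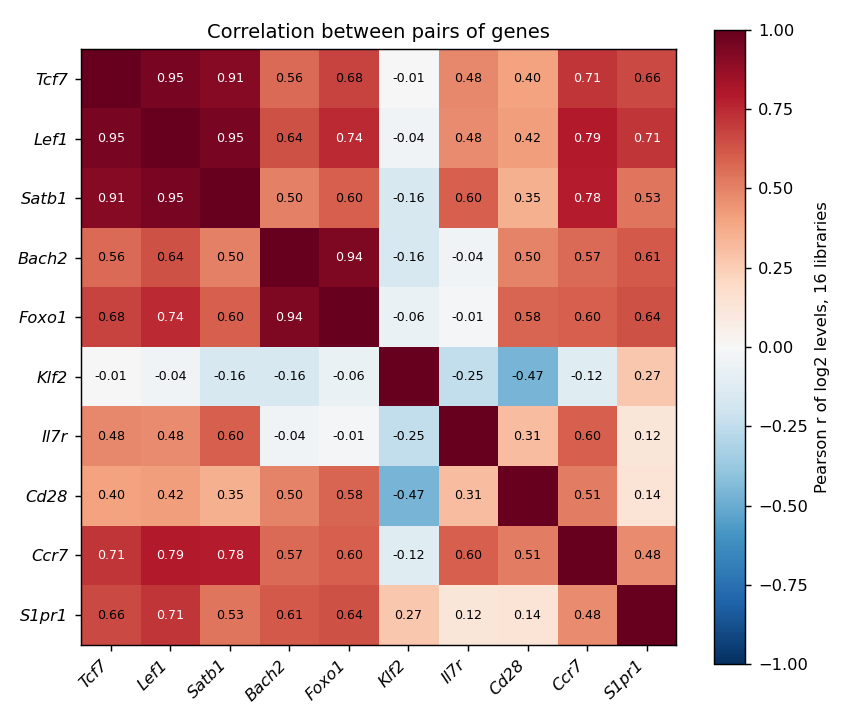
Pearson r of log2(normalized count + 1) over 16 libraries for each pair of the 10 genes, coloured from -1 (blue) to 1 (red). Tcf7, Lef1 and Satb1 form one block with values of 0.91 to 0.95, Bach2 and Foxo1 another with 0.94, and the Klf2 row and column are near 0 or negative except with S1pr1.

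To see which genes followed the T-cell content of the blood, each gene was fitted on a T-cell reference level, the mean log2 level of Cd3d, Cd3e, Cd3g, Cd247, Cd5 and Lck, which encode the antigen receptor complex and its nearest partners. This level ran from 10.20 in control 8 to 11.36 in control 12. A slope of 1 means that a gene moved in proportion to the level. Cd28 had a slope of 0.95 ± 0.27 (SE, edgeR's quasi-likelihood test, Benjamini-Hochberg adjusted p = 0.034) and Il7r one of 0.87 ± 0.27 (SE, adjusted p = 0.047, same test). These were 2 of the 10 genes with a positive slope past the threshold of 0.05, beside 4.73% of the 12755 genes tested, and 0 of the 10 had a negative one, beside 7.63%. Lef1 had a slope of 0.85 ± 0.33, Tcf7 0.78 ± 0.31 and Satb1 0.77 ± 0.26 (SE), with edgeR adjusted p of 0.096, 0.11 and 0.060. Ccr7 had 0.44 ± 0.19 (SE, edgeR adjusted p = 0.14). The slope of Klf2 was -0.69 ± 0.31 (SE, edgeR adjusted p = 0.15) and became 0.21 with total count scaling. Those of Foxo1 (0.21 ± 0.40), S1pr1 (0.02 ± 0.20) and Bach2 (-0.06 ± 0.46, SE) were within their errors, and the sign of Bach2 turned with total count scaling (0.86), with run code as a term (0.69) and without control 12 (0.11). The median slope of the 10 genes was 0.60 and that of all genes 0.06. By unadjusted p under 0.05, 7 of the 10 genes passed, Klf2 with its negative slope among them, beside 29.3% of all genes. DESeq2 called 4 of the 10, beside 16.6% of 14385 genes.

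The 2 calls changed when single animals were left out, and that of Il7r lay close to the threshold. With 1 animal left out at a time, Cd28 was called in 12 of 16 fits and Il7r in 4, and neither gene was called without control 3, 4, 8 or 10. Over all 16 such fits the adjusted p of Cd28 ran from 0.018 to 0.11 and that of Il7r from 0.030 to 0.14, while their slopes stayed between 0.82 and 1.09 and between 0.65 and 0.98. The shares over all genes fell too. Without control 8, 0.3% of 12661 genes had a positive and 0.0632% a negative call, and without control 3 these were 0.633% and 0.417% of 12964. Without control 12, which held the early thymocyte transcripts and the highest T-cell level, Cd28 had a slope of 1.07 (edgeR adjusted p = 0.045) and Il7r 0.98 (adjusted p = 0.061). With run code as a term, the slope within codes was 1.22 for Cd28 (edgeR adjusted p = 0.032) and 0.97 for Il7r (adjusted p = 0.055). Controls 15 and 16, each alone in its code, do not inform slopes within codes. Total count scaling moved the median slope of all genes from 0.06 to 0.50 and the calls over all genes from 603 positive and 973 negative to 5384 and 35 (41.6% of 13016 genes), and 8 of the 10 genes, all but Klf2 and Bach2, were then among them.

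Subtracting the T-cell level from each gene on the log2 scale gave a plain view of the same relation. The SD over animals went from 0.46 to 0.35 for Cd28, from 0.43 to 0.33 for Il7r, from 0.39 to 0.30 for Satb1, from 0.49 to 0.40 for Lef1 and from 0.46 to 0.38 for Tcf7. For the other 5 genes it was larger after subtraction, most of all for Klf2, which went from 0.44 to 0.66, and S1pr1, which went from 0.20 to 0.37.

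**Figure D3:**
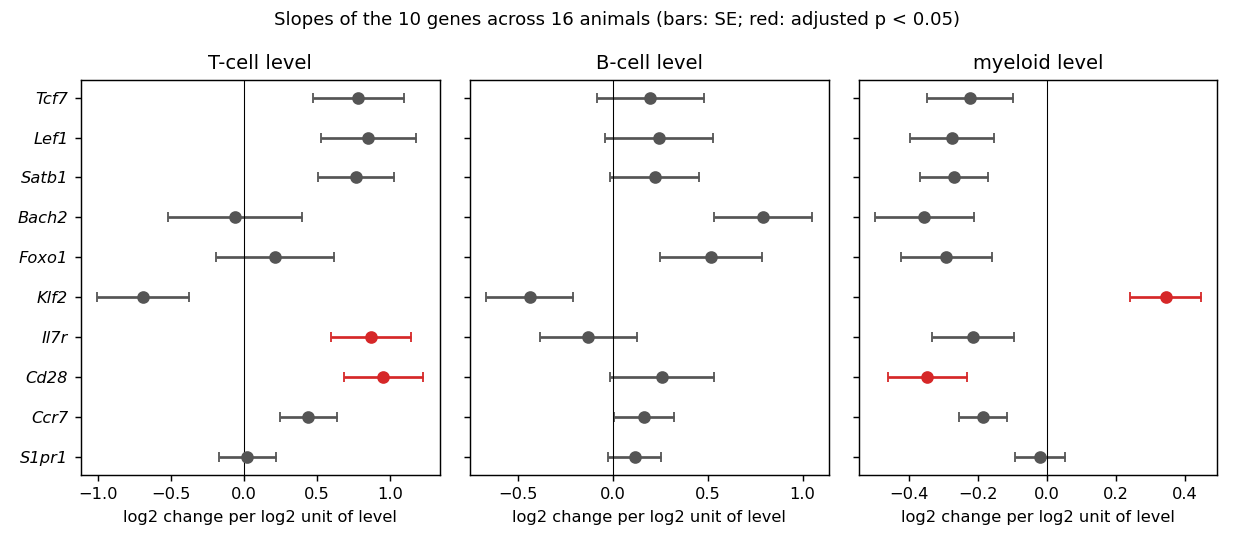
Slope of each gene on the T-cell, B-cell and myeloid reference levels over 16 animals, in log2 units of the gene per log2 unit of the level, with bars of 1 SE and red for an adjusted p under 0.05. Cd28 and Il7r are red on the T-cell level, 0 genes on the B-cell level, and Klf2 (to the right of 0) and Cd28 (to the left) on the myeloid level.

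The B-cell reference level, from 5 B-cell genes that include Cd79b and Pax5, ran from 9.47 in control 8 to 11.14 in control 6. Bach2 had the highest slope on it among the 10 genes, 0.79 ± 0.26 (SE, edgeR adjusted p = 0.065), and Foxo1 followed with 0.52 ± 0.27 (SE, adjusted p = 0.23). The slopes of the other genes ran from -0.44 (Klf2, 0.16 with total count scaling) to 0.26 (Cd28). In edgeR's test 0 of the 10 genes were called, beside 7.74% of 12756 genes in either direction. By unadjusted p under 0.05 there was 1 (Bach2), beside 26.7% of all genes, and DESeq2 also called 1, Bach2 with a slope of 0.77 (adjusted p = 0.035), beside 12.2% of 14386 genes. With total count scaling 8 of the 10 genes were called, beside 42% of 13017 genes, and the median slope of all genes was 0.40. The Bach2 slope rested on the ends of the range, since without controls 6 and 8 it was 0.05, and that of Foxo1 was then -0.11. The median slope was 0.21 for the 10 genes and 0.05 for all genes.

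The myeloid reference level, from Csf3r, S100a8, S100a9, Ccr1, Itgam, Cd14, Csf1r and Fcgr3a, ran from 10.87 in control 4 to 13.34 in control 8. Klf2 was higher where this level was higher, with a slope of 0.34 ± 0.10 (SE, edgeR adjusted p = 0.022), and Cd28 was lower, with -0.35 ± 0.11 (SE, edgeR adjusted p = 0.034). So 1 of the 10 genes had a positive call, beside 14.5% of 12510 genes, and 1 a negative call, beside 9.87%. All of the other 8 genes had negative slopes, from -0.02 (S1pr1, 0.06 with total count scaling) to -0.36 (Bach2), with edgeR adjusted p from 0.054 (Satb1) to 0.87 (S1pr1). The median slope was -0.25 for the 10 genes and -0.05 for all genes, and 7 of the 10 had an unadjusted p under 0.05, beside 37.4% of all genes. Negative slopes on this level were not particular to the 10 genes. Of the 6 T-cell reference genes 5 had a negative call, with a median slope of -0.27. The T-cell and myeloid levels were not put in 1 fit, so the calls of Cd28 on these levels cannot be told apart. Of the 5 B-cell reference genes 4 had one, with a median slope of -0.41. DESeq2 called 4, beside 24.6% of 14730 genes. Klf2 was called in each of the 16 fits that left out 1 animal, with adjusted p of 0.011 to 0.047, but not with run code as a term (slope 0.36, edgeR adjusted p = 0.054) nor without controls 2 and 8 or without controls 4 and 6. With that term Satb1 (-0.36), Tcf7 (-0.38) and Lef1 (-0.42) were called instead, with edgeR adjusted p of 0.033, 0.045 and 0.050. Cd28 lost its call in 5 of those 16 fits, without control 3, 4, 7, 8 or 15 (slopes of -0.41 to -0.30 over all 16). With total count scaling the calls over all genes were 1358 positive and 84 negative, (11.7% of 12336 genes), in place of 1814 and 1235, and Cd28 was not called (-0.28, edgeR adjusted p = 0.37).

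**Figure D4:**
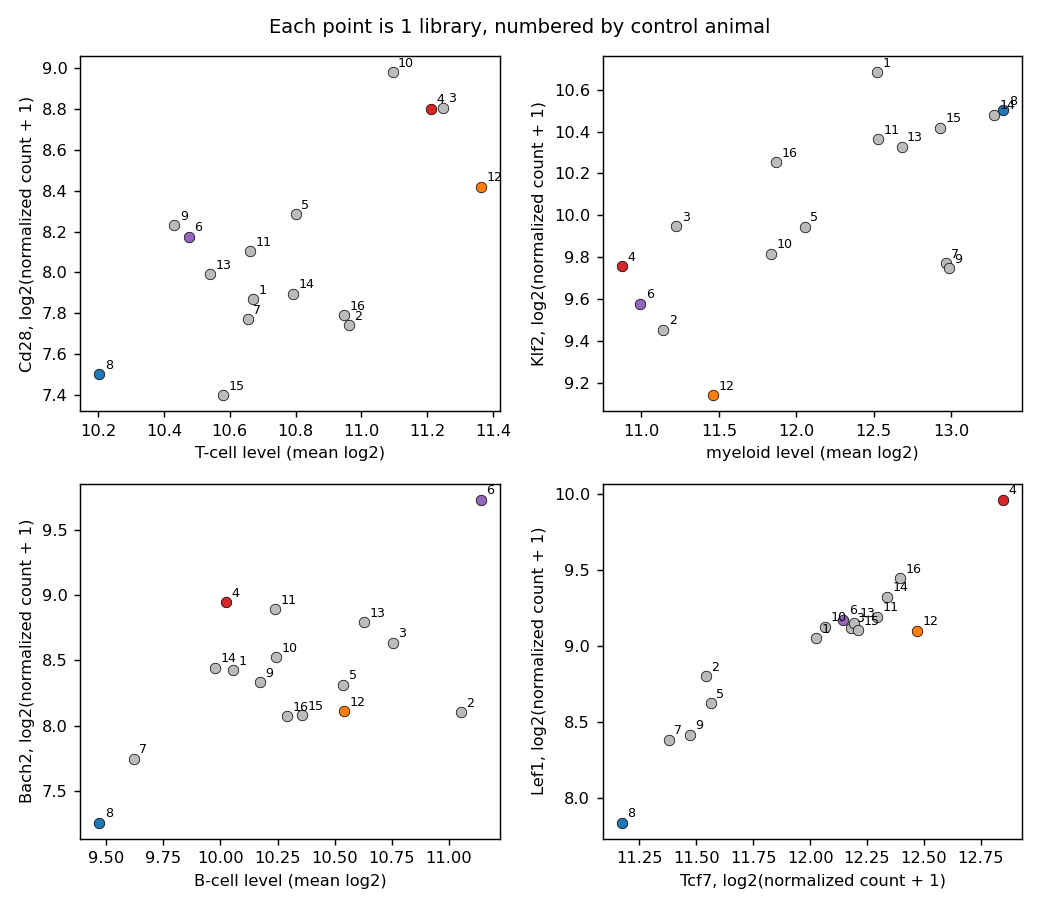
Levels in the 16 libraries, numbered by animal, for Cd28 on the T-cell level, Klf2 on the myeloid level, Bach2 on the B-cell level and Lef1 on Tcf7, all on log2 scales. Cd28 is high in controls 3, 4 and 10 and Klf2 low in control 12, controls 6 and 8 form the ends of the Bach2 panel, and Lef1 lies close to a line with Tcf7.

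With the T-cell and B-cell levels in 1 fit, the slopes on the T-cell level were 0.98 ± 0.27 for Il7r and 0.93 ± 0.29 for Cd28 (SE, edgeR adjusted p = 0.064 and 0.081). The slope of Bach2 on the B-cell level was 0.79 ± 0.27 (SE, edgeR adjusted p = 0.13). In edgeR's test 0 of the 10 genes were called for either level, beside 1.54% of 13011 genes for the T-cell and 1.64% for the B-cell level. By unadjusted p under 0.05 there were 5 genes for the T-cell level and 1 for the B-cell level, beside 21.7% and 19.9% of all genes, and DESeq2 called 3 (Cd28, Il7r and Satb1) and 0, beside 10.7% and 8.54% of 14034 genes. With total count scaling 5 and 0 were called, beside 7.06% and 2.32% of all genes.

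The file names carry run codes, and 3 of them cover enough libraries to be compared, A (controls 1 to 3), B (controls 4, 5, 7, 8 and 10) and D (controls 11 to 14). What a code stands for was not stated. In each of the 3 comparisons 0 of the 10 genes were called by edgeR's test, 0 had an unadjusted p under 0.05 and 0 were called by DESeq2, beside 0%, 0% and 2.3% of 12952 genes called by edgeR for A against B, A against D and B against D. The shares of all genes were 13.6%, 5.41% and 11.3% by unadjusted p and 4.34%, 0.0568% and 4.95% by DESeq2. Tcf7 was the gene with the lowest p in 2 of them. It averaged 3932 ± 855 in A (SD, n = 3), 3932 ± 2066 in B (SD, n = 5) and 5140 ± 415 in D (SD, n = 4). D exceeded A by 0.38 ± 0.36 and B by 0.40 ± 0.31 on the log2 scale (SE, edgeR adjusted p = 0.94 and 0.83). Its values in A (2982 to 4639) and D (4682 to 5679) did not overlap, which was so for 1 of the 10 genes and for 7.08% of all genes tested. For A against B the lowest p belonged to Il7r, with 2575 ± 764 in A (SD, n = 3) and 3057 ± 1199 in B (SD, n = 5), a difference of 0.23 ± 0.32 (SE, edgeR adjusted p = 0.77). Of the 10 genes 0 had values that did not overlap for A against B or for B against D, beside 6.37% and 5.96% of all genes. Code B held both control 4 and control 8, and its SD was the largest of the 3 codes in 8 of the 10 genes.

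Genes related to these 10, partners as well as factors of effector differentiation, were taken from 7 lists. The lists held 64 genes listed in every file, of which 63 were tested, and counts over all lists are not results about partners alone. On the T-cell level 7 had a positive and 13 a negative slope past the threshold in edgeR's test, beside 4.73% and 7.63% of all genes, and their median slope was -0.18, beside 0.06 for all genes. The CD28 family and its partners held 4 of the 7 positive calls among 10 genes tested, Cd27, Icos and Pik3r1 among them, with a median of 0.56, and 1 negative call (Vav1). Cd27, a costimulatory receptor of resting lymphocytes, had 1.22 ± 0.17 (SE, edgeR adjusted p = 0.0035). Among the 10 homing receptors Ccr9, the receptor for a gut and thymus chemokine, had 1.75 ± 0.28 (SE, edgeR adjusted p = 0.0052) and 1.12 without control 12, the library with the early thymocyte transcripts, while Itgb2, which neutrophils and monocytes also carry, had a negative slope. Among the partners of TCF/LEF factors and T-lineage factors, 11 genes tested, 1 was positive, Id3 with 0.95 ± 0.22 (SE, edgeR adjusted p = 0.021), and 3 were negative. In IL-7 receptor signalling Il2rg, the chain that pairs with Il7r, was positive and Stat5b negative among 8 genes. The lists for the FOXO1 pathway, S1P egress and effector differentiation, with 8 genes each, held 0 positive and 1, 2 and 3 negative calls. The negative slopes of largest size over all lists were those of Batf (-2.49 ± 0.76) and Zeb2 (-1.61 ± 0.43, SE), with edgeR adjusted p of 0.043 and 0.027. The myeloid reference genes moved the same way, with 5 of 8 negative calls and a median slope of -2.42, and their part in the negative calls of the lists was not tested. Without controls 2 and 8 the lists held 2 positive and 0 negative calls, without control 8 alone 2 and 0, without control 3 alone 2 and 1, without control 12 alone 5 and 6, and with total count scaling 24 and 0.

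The genes whose levels were most like the mean standardized log2 level of the 10, among 8374 genes with a symbol and a mean of at least 100, were Axin2 (r = 0.95), Slc12a7 (0.94), Pitpnm2 (0.94), Cad (0.93) and Ubash3a (0.93), with rho of 0.85 to 0.90 over the 16 libraries. Without controls 4 and 8 these values of r were 0.82 to 0.90. Axin2 is a feedback inhibitor of Wnt signalling, which acts through TCF/LEF factors, and Ubash3a dampens signals of the T-cell antigen receptor. The gene most like a single member was a different one for each member, within the 2 sets described above too. In the first set they were Impdh1 for Tcf7 (r = 0.94, rho = 0.89), Pitpnm2 for Lef1 (r = 0.97, rho = 0.88) and Yeats2 for Satb1 (r = 0.95, rho = 0.85). In the second set they were Eif2c1, which encodes Argonaute 1, for Bach2 (r = 0.96, rho = 0.95) and Gapvd1 for Foxo1 (r = 0.95, rho = 0.92). Klf2 was most like Fmnl1, a formin of blood cells that shapes the actin skeleton (r = 0.88, rho = 0.86), and Cd28 most like Slc25a36l1 (r = 0.93, rho = 0.92). Ccr7 was most like Zfp467 (r = 0.87, rho = 0.85), S1pr1 most like the nucleolar gene Mybbp1a (r = 0.84, rho = 0.83) and Il7r most like Aplf (r = 0.77, rho = 0.76), the lowest of these values.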

How the data were processed

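Whole blood RNA of 16 saline-treated rats was sequenced as paired ends after globin depletion. Base calling (CASAVA 1.8.2), adapter trimming (fastq-mcf), alignment to an Ensembl rat transcriptome of build rn5 (Bowtie 0.12.9) and estimation per gene (RSEM 1.2.0) were done by the authors, who deposited estimated counts without normalization. These can hold fractions, since RSEM divides reads that fit several transcripts. Replacement of outlying values, a step of the study, was not done here. The estimated counts were rounded to whole numbers, and only genes listed in all files were used, since the files listed different numbers of genes. The counts of each pair of libraries differed beyond sampling noise (lowest chi-square per degree of freedom 48.0), so no library repeated the counts of another. This comparison cannot tell separate animals from libraries made of the same RNA. The labels number the animals separately, so each library was counted as 1 animal, and p-values measure the spread among them. Depth was 21466776 to 31189549 counts, and 3 counts correspond to 0.096 to 0.14 CPM.

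Slopes on reference levels (mean log2 of DESeq2-normalized counts with a pseudocount of 1) and differences between run codes were fitted over all genes with edgeR 4.0.16 in R 4.3.3 (TMM scaling, filterByExpr, quasi-likelihood F-test, Benjamini-Hochberg adjustment, threshold 0.05). The genes of a level stayed in the fit on that level, but were left out of the adjustment and of the genes counted. Run codes come from the file names and their meaning was not stated, so code and experiment cannot be told apart. DESeq2 1.42.0, other scalings, no filter, run code as a term and left-out libraries were the alternatives. The code was tested on simulated data. The 10 genes, the marker lists and the related lists were chosen with earlier results of these data known. The named genes were the 10, the 5 most like their mean and the 1 most like each, up to 3 positive and 3 negative slopes of largest size from the related lists on the T-cell level, and the gene of lowest p in each comparison of codes. Others named in counts of the lists were chosen after their values were seen. Promoter windows are from RefSeq, build GRCr8, matched by symbol. A gene that this rule names and some genes of the lists are not reported here. Cd79a and Themis were not listed in any file. Python 3.11.15, pandas 2.3.3, numpy 2.4.6, scipy 1.17.1 and matplotlib 3.10.9 were used.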

Additional observations from a re-analysis of the deposited data

Results flagged for a closer look

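Within run codes B and D the 10 genes gave 20 groups of 4 or 5 libraries in which a single library far from the rest was looked for, and about 1 in 20 such groups would stand out by chance. Klf2 stood out in both codes. In code B control 8 had 1448 normalized counts of Klf2, against 864 to 986 in the other 4 libraries, a gap of 0.746 of the range on the log2 scale. Control 8 also had the highest myeloid level (13.34) and the lowest T-cell level (10.20) of the 16 libraries. In code D control 12 had 564 normalized counts of Klf2, against 1285 to 1427 in the other 3 libraries, a gap of 0.887 of the range. Control 12 held the early thymocyte and adipocyte transcripts and the highest T-cell level (11.36). The part of these in the Klf2 values was not tested.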

How the results depend on the processing

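No paired analysis was possible because all 16 libraries belong to 1 group. Of the 10 genes, 2 were called on the T-cell level. The number was 8 with total count scaling (beside 41.6% of all genes) and 4 with DESeq2 (beside 16.6%). It was 1 without the low-count filter, 1 with run code as a term and 1 without control 12. Without controls 2 and 8 it was 0, as it was without controls 8 and 12, which had the most extreme levels. It was 0 to 2 with each library left out in turn. On the B-cell level 0 were called, against 8 with total count scaling (beside 42% of all genes) and 1 with DESeq2 (beside 12.2%). With single libraries left out the number was 0 to 1 (1, Bach2, without control 2 or control 4). On the myeloid level 2 were called, against 1 with total count scaling (beside 11.7% of all genes), 4 with DESeq2 (beside 24.6%), 1 without the filter, 1 without controls 2 and 8, 0 without controls 4 and 6, and 1 to 5 with single libraries left out (5 without control 2, 4 without control 14). With both lymphocyte levels in 1 fit 0 were called, against 5 with total count scaling (beside 7.06% of all genes for the T-cell and 2.32% for the B-cell level) and 3 with DESeq2. Between run codes 0 were called under each alternative run, with libraries left out in turn too (0 to 0). The median coefficient of variation of 31.5% was 42.2% with total count scaling. The 750 slopes of the 10 genes under alternatives hold the fits without control 12 in duplicate, as a set alternative and among the libraries left out in turn. Of these 750 slopes, 648 kept direction and side of the threshold, 35 lost a call, 35 gained one and 32 turned direction. On the T-cell level those that turned were Bach2 (0.86 with total count scaling, 0.69 with run code as a term, 0.11 without control 12), Klf2 (0.21 with total count scaling), and S1pr1 (-0.093) and Foxo1 (-0.086) without controls 2 and 8. On the B-cell level Il7r turned with total count scaling (0.37) and run code as a term (0.18), and Klf2 with total count scaling (0.16). Without controls 6 and 8, Tcf7 (-0.13), Lef1 (-0.15), Satb1 (-0.045), Ccr7 (-0.069), S1pr1 (-0.058) and Foxo1 (-0.11) turned there. On the myeloid level S1pr1 turned with total count scaling (0.056) and without controls 4 and 6 (0.047). With libraries left out in turn the T-cell slopes of Bach2 (-0.46 to 0.46), Foxo1 (-0.13 to 0.53) and S1pr1 (-0.11 to 0.16), the B-cell slopes of Il7r (-0.34 to 0.0023), Lef1 (-0.066 to 0.42), Satb1 (-0.021 to 0.37) and Tcf7 (-0.066 to 0.40) and the myeloid slope of S1pr1 (-0.068 to 0.013) crossed 0. With total count scaling Il7r was lower in code B than in code A (-0.17), and the correlation of Klf2 with Cd28 was 0.056. The cause of these changes was not tested. Depth did not limit the 10 genes, whose lowest count was 117, and the number of animals and the few at the ends of each level limit the slopes.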

Other observations

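Control 12 combined a high T-cell level with low S1pr1 and Klf2. It had the highest T-cell level (11.36) and the second highest Tcf7 (5679 normalized counts), yet the lowest S1pr1 (2385) and the lowest Klf2 (564) of the 16 libraries. Its Lef1 (547) and Ccr7 (1999) lay near their medians of 552 and 2056. Its 6 early thymocyte genes summed to 6682 normalized counts, and their part in these values was not tested.

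Control 15 had the lowest Cd28 (168) of all libraries although its Il7r (3451) was the third highest and its Tcf7 (4741) was above the median. Control 7 had the second highest Il7r (3564) together with the second lowest Tcf7 (2663), Lef1 (333) and Satb1 (2010). In control 7 the Il7r value thus departed from the low place that Tcf7, Lef1 and Satb1 shared. In control 15 the Cd28 value departed from those of Il7r and Tcf7.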
